A study of Mus musculus with 5 samples.

Results

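The expression of 35 genes of DNA replication and S phase was followed in cells labelled as CD31-positive endothelial cells, from mouse hearts taken 5 days after myocardial infarction. The genes were chosen by name for their roles, with earlier results of these data known, and all 35 were among the 17638 genes of the deposited table. There were 3 control libraries and 2 libraries labelled Tbx1cko, which the series describes as an endothelial knockout of Tbx1. Mice of both groups were 2 months old, on a C57BL/6 background, and both groups had an infarction, so there was no uninjured group. The Cre driver, the alleles that the controls carried and any pooling of animals were not given in the sources used here. Whether each library of a group is a separate animal is not in the labels, and p-values therefore measure the spread between these libraries, which may be technical.

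Before a cell divides, it licenses replication origins in G1 by loading the MCM helicase, with CDC6 and CDT1 as loaders. At the start of S phase, cyclin E with its kinase and the E2F transcription factors switch on the replication genes, the helicase is activated with GINS and MCM10, and polymerases copy both strands on the sliding clamp PCNA. The new DNA is packed by the CAF-1 chaperone and its methylation is copied by UHRF1 and DNMT1. Most adult cardiac endothelial cells are quiescent, and endothelial cells, fibroblasts and macrophages are all known to divide in the heart after infarction. In bulk RNA, fewer cells in S phase and less replication RNA per cell cannot be told apart.

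E2F factors bind short promoter words, and promoter stretches that hold such a word are shown here because E2F control is what these genes are best known for sharing. The words searched were TTTCCCGC, TTTGGCGC, TTTCGCGC and TTTGCCGC, on both strands, in RefSeq windows (GRCm38.p6) from 250 bases before to 50 bases after each annotated start. Windows were matched for 29 of the 35 genes; Mcm4, Gins1, Gins2, Rfc2, Pole and Ccne2 were not matched. Of the 29, 13 (44.8%) held a word in at least 1 window, against 4.52% of the 10355 tested genes with a window. Per window the shares were 36.1% of 36 and 3.71% of 13242. A gene list of G2 and mitosis had 1 of 21 genes (4.76%), and 16 of its 21 genes (76.2%) held a CCAAT word, against 58.6% of the S-phase genes and 42.3% of tested genes. These are matches of letters, not measured binding. Stretches are shown for genes with a word before the start in their outermost window. Mcm7 and Rfc3 met this too but were left out, because more of their stretch is annotated as exon. Mcm3, Cdt1, Pold1, Lig1, Uhrf1 and Dnmt1 held a word only after the start or in an inner window. The stretches are 64 bases long, from before the RefSeq start that defines the window, 5′ to 3′ on the gene's strand, with the matched word in capitals. GENCODE M21 places the start of Cdc6 and that of Cdca7 further upstream, so that the Cdc6 stretch lies inside the annotated gene, outside its exons, and 23 bases of the Cdca7 stretch are annotated as exon.
Mcm5, chr8:75109330-75109393, plus strand: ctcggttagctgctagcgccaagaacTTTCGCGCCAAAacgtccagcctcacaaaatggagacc
Mcm6, chr1:128359719-128359782, minus strand: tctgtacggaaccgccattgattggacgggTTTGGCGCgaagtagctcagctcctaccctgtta
Cdc6, chr11:98907983-98908046, plus strand: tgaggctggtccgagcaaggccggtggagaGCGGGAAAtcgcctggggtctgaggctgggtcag
Pola1, chrX:93632260-93632323, minus strand: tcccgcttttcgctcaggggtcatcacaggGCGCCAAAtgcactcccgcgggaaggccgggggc
Cdca7, chr2:72476118-72476181, plus strand: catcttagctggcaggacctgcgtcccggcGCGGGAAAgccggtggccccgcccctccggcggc
In Mcm5 a pair of words on opposite strands overlap, which gives the longer run of capitals, and in Cdc6, Pola1 and Cdca7 the word lies on the opposite strand and is read here as its reverse complement.

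The libraries held 14689782 to 18617284 reads. Control replicate 2 stood apart, with correlations of log2 values across genes of 0.859 to 0.889 with the other libraries, which correlated at 0.98 to 0.988 with each other. Its deviation from the others followed the GC content of the transcripts (Spearman rho 0.801 across the 13771 tested genes with a GC value), so fitted differences are given with and without it. In control replicates 1 to 3 Tbx1 had 64.4, 72.7 and 69.6 normalised counts, against 18.3 and 17.3 in Tbx1cko replicates 1 and 2, in the direction of the labels. Pecam1, which encodes CD31, ranged from 33715 to 43313 normalised counts over the libraries, and Cdh5, another endothelial gene, from 45379 to 62849. Markers of mural cells, fibroblasts, macrophages, cardiomyocytes and blood cells were also detected, so the cells were not all endothelial.

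None of the S-phase genes tested passed the test of Tbx1cko against control. The test was limma on log2(normalised count + 1), a scale whose added 1 understates differences of low genes. It was run over all 14339 genes whose normalised counts averaged at least 10, and it included 34 of the 35 genes. Fen1 was below that level. Past an adjusted p of 0.05, limma called 0 of the 34, where the share called among all genes was 0%. The smallest unadjusted p among the 34 was 0.109, so 0 of them were under 0.05, where 0.37% of all genes were so with higher and 1.37% with lower values in Tbx1cko. On the whole reads recovered from the values, edgeR called 0 genes and DESeq2 called 4 (0.0279%; Myt1l, Tbx1, Selp and Myl7), none of them an S-phase gene. Without control replicate 2 limma and edgeR each called 3 genes (0.0209%) and DESeq2 called 77 (0.537%), again with 0 of the S-phase genes among them. Where control replicate 2 was very low, the log scale gave larger differences than the read counts did. With all 5 libraries the log2 differences (Tbx1cko minus control) of Ccne2 and Pola1 were 1.65 and 1.31 in limma. They were 0.94 and 0.64 in DESeq2.

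The fitted log2 difference, Tbx1cko minus control, was above 0 for 30 of the 34 genes, where 52.4% of all genes were above 0. Its median over the 34 was 0.35, against 0.03 over all genes tested. Without control replicate 2 the median was 0.16 and 32 genes were above 0, against 53.4% of all genes. Leaving out Tbx1cko replicate 1 instead also gave a median of 0.16. With log values corrected for GC content it was 0.41 with 33 genes above 0, but there 64.6% of all genes were above 0 and their median was 0.11. The 95% interval of the fitted difference included 0 for all 34 genes and reached a 2-fold rise or fall for 18 (for all genes, 61.7% reached it), so for those 18 a 2-fold difference lay within the error. Without control replicate 2 it reached 2-fold for 3 genes (Gins1, Ccne1 and Ccne2), against 20.5% of all genes. There it excluded 0 for 2, Prim1 and Rrm2, both higher in Tbx1cko, with adjusted p-values of 0.569 and 0.546 (limma). Over all genes, 3.39% were under an unadjusted p of 0.05 with higher and 4.02% with lower values in that fit, so 2 of 34 is near the background.

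**Figure D1:**
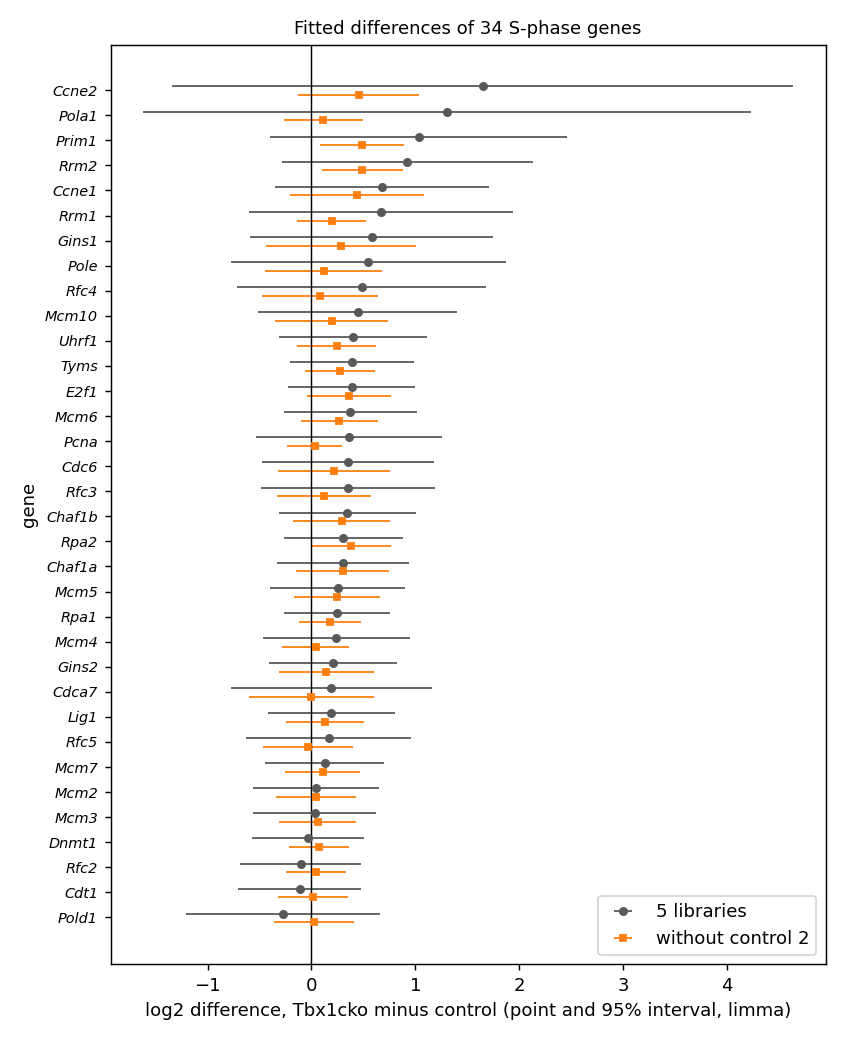
Fitted log2 difference (Tbx1cko minus control, horizontal axis) of each of the 34 S-phase genes tested, with its 95% interval from limma, for all 5 libraries (grey circles) and without control replicate 2 (orange squares). The grey intervals all cross 0, and Ccne2, Pola1, Prim1 and Rrm2 have the largest fitted differences, each of them closer to 0 without control replicate 2.

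Libraries of the same genotype differed by about as much as the genotypes did. As the median over the 34 genes of the log2 deviation from each gene's mean of 5 libraries, Tbx1cko replicate 1 stood highest at 0.36, then control replicate 3 at 0.16, Tbx1cko replicate 2 at 0.02, control replicate 1 at -0.15 and control replicate 2 at -0.40. The order thus puts a control library between the Tbx1cko libraries. Tbx1cko replicate 1 was the highest of the 5 libraries for 26 of the 34 genes, against 17.6% of all genes, and control replicate 2 was the lowest for 21, against 41.5%. Control replicate 3 was above control replicate 1 for 32 genes (53% of all genes), with a median log2 gap of 0.31, and Tbx1cko replicate 1 was above Tbx1cko replicate 2 for 32 (50% of all genes), where replicate 2 minus replicate 1 had a median of -0.27. These gaps within a genotype were close in size to the median difference between genotypes. Against control replicate 3 alone, the mean of the Tbx1cko libraries was higher for 17 of the 34 genes, with a median log2 difference of 0.01. Against control replicate 1 alone the median was 0.32.

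**Figure D2:**
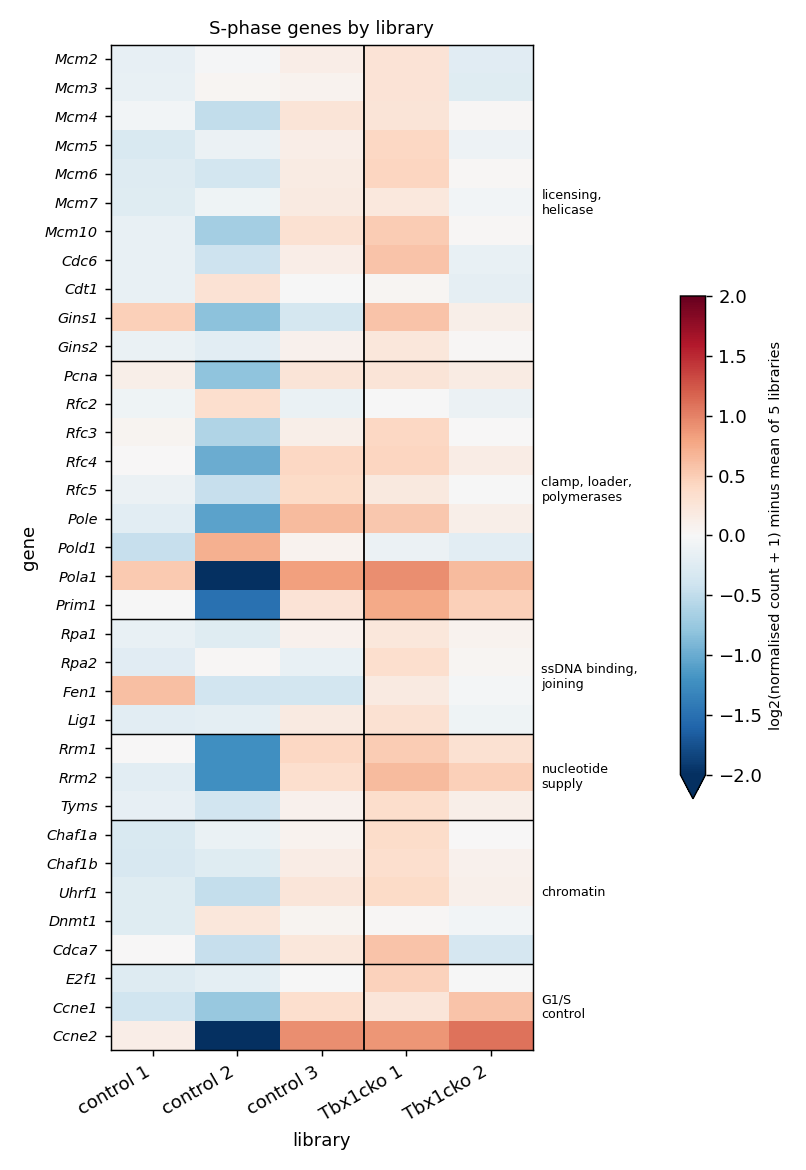
Log2(normalised count + 1) of each S-phase gene minus its mean over the 5 libraries (colour, cut at -2 for Pola1 and Ccne2 in control replicate 2), by library (columns) and grouped by role (rows). The columns of Tbx1cko replicate 1 and control replicate 3 are mostly red, and that of control replicate 2 is mostly blue, although Cdt1, Rfc2, Pold1 and Dnmt1 were highest there.

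The groups did not overlap for 5 of the 34 genes, Prim1, Rpa2, Rrm2, Tyms and E2f1, all with higher values in Tbx1cko. That is close to the 14.2% of all genes that were higher without overlap, and 0 of the 34 were lower without overlap, against 13.9%. The count depended on control replicate 3 and on Tbx1cko replicate 2. Without control replicate 3 it was 24 genes, against 28.4% of all genes, and without Tbx1cko replicate 2 it was 26, against 24.9%. Without control replicate 2 it stayed at 5, against 19.7%.

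Of the 3 genes that supply nucleotides for DNA, 2 were higher in Tbx1cko without overlap of the groups, where 14.2% of all genes were. A role of 3 genes is too small to be set against that share. Rrm2, the S-phase subunit of ribonucleotide reductase (chr12:24708241-24714146, plus strand, GRCm38), had 435, 214 and 639.8 normalised counts in control replicates 1 to 3, and Tbx1cko replicates 1 and 2 had 780.2 and 705. Both Tbx1cko values lay above all 3 controls, and control replicate 3 came nearest. The log2 difference was 0.92 (SE 0.48), with a limma adjusted p of 0.762, and it was 0.49 without control replicate 2. Rrm1, the large subunit of the same enzyme, had 1246, 528 and 1649 in controls and 1762 and 1525 in Tbx1cko. Control replicate 3 lay between the Tbx1cko values, so the groups overlapped, and the log2 difference of 0.67 (SE 0.51) was 0.19 without control replicate 2. For Tyms, thymidylate synthase, the values were 444, 379 and 525 in controls and 633 and 540.1 in Tbx1cko, apart by a narrow margin, with a log2 difference of 0.39 (SE 0.24), or 0.28 without control replicate 2.

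Among the clamp, clamp loader and polymerase genes, 7 of 9 had a fitted difference above 0, and the largest rested on control replicate 2. Prim1, the catalytic subunit of primase, which starts each new strand with a short RNA (chr10:128015168-128030037, plus strand, GRCm38), had 211, 74.5 and 256 normalised counts in controls and 360.4 and 296 in Tbx1cko. Each Tbx1cko library was above each control, and the log2 difference was 1.03 (SE 0.57), or 0.49 without control replicate 2. Pola1, the polymerase subunit that works with primase (chrX:93304767-93632155, minus strand, GRCm38), had 319, 28.5 and 389 in controls and 423 and 342 in Tbx1cko. Control replicate 2, far below the other 4, made the fitted log2 difference 1.31 (SE 1.17), and without that library it was 0.11. Its transcript has a GC content of 41.5%, among the lowest of the 34 genes. After GC correction the log2 difference of Pola1 with all 5 libraries was still 0.70.

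Rfc3, a subunit of the loader that opens PCNA around DNA, had 163, 102 and 169 normalised counts in controls and 208 and 157 in Tbx1cko, with overlap. Pole, the leading-strand polymerase, had 191, 104 and 341 in controls and 319 and 239 in Tbx1cko, and control replicate 3 was the highest of the 5. The log2 difference was 0.35 for Rfc3 and 0.54 for Pole, and 0.12 for each without control replicate 2. Pcna itself, the gene of the sliding clamp, had 3282, 1746 and 3648 in controls and 3656 and 3410 in Tbx1cko. Control replicate 2 was low and the other 4 libraries ran from 3282 to 3656, and the log2 difference of 0.36 became 0.03 without it. Pcna was chosen for these values after they were seen, as was Pold1, the lagging-strand polymerase, which ran the other way: 520, 1173 and 754 in controls and 657 and 618 in Tbx1cko. Its transcript has the highest GC content of the 34, 61.0%, control replicate 2 was its highest library, and its log2 difference of -0.28 became 0.02 without that library. The other 3 genes of the role, Rfc2, Rfc4 and Rfc5, had log2 differences of -0.11, 0.48 and 0.16, or 0.04, 0.08 and -0.04 without control replicate 2.

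In the licensing and helicase role, 10 of 11 genes had a fitted difference above 0 and 0 had groups apart. Over all genes, 14.2% were higher and 13.9% lower without overlap. Mcm6, a subunit of the MCM ring, had 1306, 1210.5 and 1746 normalised counts in controls and 2092 and 1584 in Tbx1cko. Control replicate 3 lay above Tbx1cko replicate 2, and the log2 difference was 0.38 (SE 0.25), or 0.27 without control replicate 2. Mcm10, which helps start the helicase, had 111, 76.3 and 152 in controls and 177 and 125 in Tbx1cko. Cdc6, which loads the MCM ring, had 156, 129 and 189 in controls and 256 and 156 in Tbx1cko. In each of these 3 genes Tbx1cko replicate 1 was the highest library while Tbx1cko replicate 2 lay within the range of the controls. Gins1, a subunit of the active helicase, was an exception to the library order, with 82.5, 33.1 and 46.1 in controls and 88.7 and 64.2 in Tbx1cko, where control replicate 1 and not 3 came nearest to Tbx1cko.

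The 5 other MCM ring genes had small differences on the log2 scale: 0.05 for Mcm2, 0.03 for Mcm3, 0.24 for Mcm4, 0.25 for Mcm5 and 0.13 for Mcm7. In the same order they were 0.04, 0.06, 0.04, 0.24 and 0.11 without control replicate 2, the lowest library of Mcm4. For Mcm2, Tbx1cko held both the highest and the lowest library, 1080.2 and 762, with controls at 791, 876 and 980.5. The same held for Mcm3, at 1656 and 1150.5 in Tbx1cko. Gins2, another GINS subunit, had a log2 difference of 0.21, or 0.14 without control replicate 2. Cdt1, the other MCM loader, had -0.11, which was 0.01 without control replicate 2.

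Of the 4 genes for single-strand binding and lagging-strand joining, 3 were tested. Rpa2, a subunit of the protein that coats single-stranded DNA, had 229, 273 and 243 normalised counts in controls and 339 and 277 in Tbx1cko. The groups were apart, but Tbx1cko replicate 2 exceeded control replicate 2 by a few counts only. Here control replicate 2 was the highest control, and the log2 difference of 0.31 (SE 0.23) was 0.38 without it. Rpa1, the large subunit of the same protein, had 889, 834 and 1049 in controls and 1149.7 and 1034 in Tbx1cko. Lig1, the ligase that seals Okazaki fragments, had 697, 705 and 918 in controls and 1001 and 766 in Tbx1cko, and control replicate 3 lay between the Tbx1cko libraries in both genes.

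Fen1, the flap nuclease that trims Okazaki fragments, had 10.2, 4.6 and 4.7 normalised counts in controls and 7.32 and 6.11 in Tbx1cko. At 2.72 normalised counts per kb of exon, as a mean over the 5 libraries, it was the lowest of the 35, while the others ranged from 16.7 for Mcm10 to 1312 for Pcna. In GENCODE M21, 78.8% of the exon bases of Fen1 overlap exons of the antisense gene Gm10143, which itself had 1.84 to 6.59 normalised counts. No source used here gives the strand setting of the counting, and its part in the low value of Fen1 was not tested. Exons of 10 other S-phase genes overlap another gene as well, most of all Gins2 (67.3%, with Gse1) and Chaf1a (52.5%, with Ubxn6), and their counts are uncertain to that extent.

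Of the genes of chromatin assembly and methylation copying, 4 of 5 had a fitted difference above 0. None had groups apart, where 14.2% of all genes were higher and 13.9% lower without overlap. Uhrf1, which brings DNMT1 to new DNA, had 612, 522 and 864 normalised counts in controls and 946 and 785 in Tbx1cko, which gave a log2 difference of 0.40 (SE 0.28), or 0.24 without control replicate 2. Chaf1b and Chaf1a encode subunits of the CAF-1 histone chaperone. Chaf1b had 151, 158 and 209 in controls and 237 and 199.7 in Tbx1cko. Chaf1a had 179.7, 203 and 234 in controls and 286 and 223 in Tbx1cko. In all 3 genes control replicate 3 was above Tbx1cko replicate 2. Cdca7, a cofactor of the chromatin remodeller HELLS, had 150.3, 109 and 175 in controls and 222 and 118 in Tbx1cko, and its log2 difference of 0.19 was -0.00034 without control replicate 2. Dnmt1, the maintenance methyltransferase, had a log2 difference of -0.03, or 0.07 without control replicate 2.

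The 3 genes of G1/S control all had fitted differences above 0. E2f1, the transcription factor, had 314, 327 and 374 normalised counts in controls and 518 and 375 in Tbx1cko. Tbx1cko replicate 2 and control replicate 3 were almost level, so the groups were only just apart, and the log2 difference was 0.39 (SE 0.24), or 0.36 without control replicate 2. Ccne1 and Ccne2 encode the E-type cyclins. Ccne1 had 56.5, 44.2 and 95.03 in controls and 88.7 and 112 in Tbx1cko, with control replicate 3 between the Tbx1cko libraries, and the log2 difference of 0.68 (SE 0.41) was 0.44 without control replicate 2. Ccne2 (chr4:11191351-11204779, plus strand, GRCm38) had 91.5, 9.2 and 160.0 in controls and 155 and 178 in Tbx1cko. At 1.65 (SE 1.19, limma adjusted p 0.762) the log2 difference of Ccne2 was the largest of the 34, and its 95% interval ran from -1.34 to 4.63. Without control replicate 2 it was 0.45. Both cyclin genes were highest in Tbx1cko replicate 2, whereas 26 of the 34 genes were highest in Tbx1cko replicate 1.

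The deviation of control replicate 2 followed GC content within these genes too. Over the 34, its log2 deviation from the mean of the other libraries correlated with transcript GC at a Spearman rho of 0.763, and the fitted difference between genotypes correlated with GC at -0.635, or -0.178 without that library. These coefficients are descriptions across genes that share libraries. The 12 genes of lowest GC, 36.3% to 47.3%, were all lowest in control replicate 2, with a median log2 deviation of -1.13 and a median difference between genotypes of 0.53 (0.23 without control replicate 2). The 12 genes of highest GC, 51.9% to 61.0%, had a median deviation of -0.15 and a median difference of 0.20 (0.14 without it), and 3 of them were lowest in control replicate 2. After the log values were corrected for GC content, control replicate 2 was the lowest library for 30 of the 34 genes, against 56.6% of all genes. The order of the libraries by median deviation was then the same as before, at 0.40, 0.23, 0.11, -0.11 and -0.60.

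**Figure D3:**
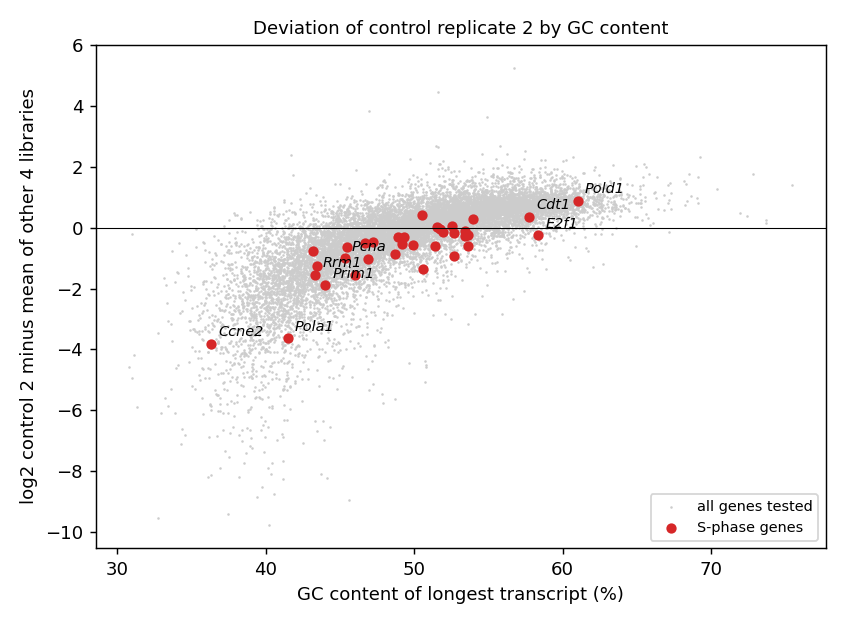
Log2 value of control replicate 2 minus the mean of the other 4 libraries (vertical axis) against the GC content of the longest transcript (horizontal axis, percent), for all genes tested with a GC value (grey) and the 34 S-phase genes (red). Ccne2 and Pola1, at the low end of GC, deviate the most, and Pold1, at 61.0%, lies above 0.

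The rest of the cell cycle was read from lists of other genes. With all 5 libraries, 0 of their genes were past an adjusted p of 0.05 in either direction and 0 under an unadjusted 0.05 (limma). Without control replicate 2, limma put 3 of 41 genes of other replication machinery under an unadjusted 0.05 with higher values. So were 1 of 23 chromatin and checkpoint genes and 3 of 25 mitosis genes, against 3.39% of all genes. In other G1/S genes 1 of 26 was lower, against 4.02%. In other replication machinery 33 of 41 genes had a fitted difference above 0, with a median of 0.48 that was 0.17 without control replicate 2. With all 5 libraries 17 were higher without overlap, against 14.2% of all genes, while 1, Timeless, was lower. Without control replicate 2, 18 were higher without overlap, against 19.7%. The higher genes included Rnaseh2b, a subunit of the nuclease that removes RNA from DNA, with 146, 65.3 and 149.6 normalised counts in controls and 216 and 203 in Tbx1cko. Dbf4, the activator of the CDC7 origin kinase, had 285, 114 and 369.8 in controls and 462 and 456 in Tbx1cko, and Atad5, which unloads PCNA, had 111, 38.6 and 182 against 222 and 216. In these 3 genes both Tbx1cko libraries were above all controls and close to each other. The log2 difference of Dbf4 was 0.998 (SE 0.53), or 0.50 without control replicate 2 and 0.17 after GC correction.

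Other nucleotide genes had 11 of 14 above 0 with a median of 0.25, or 0.09 without control replicate 2. Dut, which clears dUTP, had a log2 difference of 0.52, and Paics, a purine synthesis enzyme, 0.50, or 0.41 and 0.20 without control replicate 2. Other S-phase chromatin and checkpoint genes had 22 of 23 above 0 with a median of 0.63, or 0.24 without control replicate 2. Zranb3, a fork remodeller, had a log2 difference of 0.63, and Atrip, partner of the ATR kinase, 1.15, at 2.76 to 18.3 normalised counts per library. These were 0.42 and 0.63 without control replicate 2. Other G1/S genes had 18 of 26 above 0 with a median of 0.13, or 0.01 without control replicate 2. Here Myc, a growth transcription factor, and Cdkn1a, the CDK inhibitor p21, were lower without overlap, with log2 differences of -0.38 and -0.33, or -0.45 and -0.13 without control replicate 2. The others without overlap were Rbl2 and Cdk2, both higher, so 2 of 26 were lower and 2 higher, against 13.9% and 14.2% of all genes. Ccna2, the S-phase cyclin, had a log2 difference of 1.004, or 0.37 without control replicate 2.

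Genes of G2 and mitosis showed the same library order with a wider spread. All 25 had a fitted difference above 0, with a median of 0.81 that was 0.27 without control replicate 2, and 4 were higher without overlap, near the 14.2% of all genes. Their median deviations were 0.66 in Tbx1cko replicate 1, 0.44 in control replicate 3, 0.27 in Tbx1cko replicate 2, -0.11 in control replicate 1 and -1.38 in control replicate 2. Birc5, survivin, had 247, 171 and 386 normalised counts in controls and 498 and 364 in Tbx1cko, with control replicate 3 above Tbx1cko replicate 2. Kif20a, a kinesin of cytokinesis, had a log2 difference of 0.47 and Cdk1, the mitotic kinase, 0.75, or 0.34 and 0.39 without control replicate 2.

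**Figure D4:**
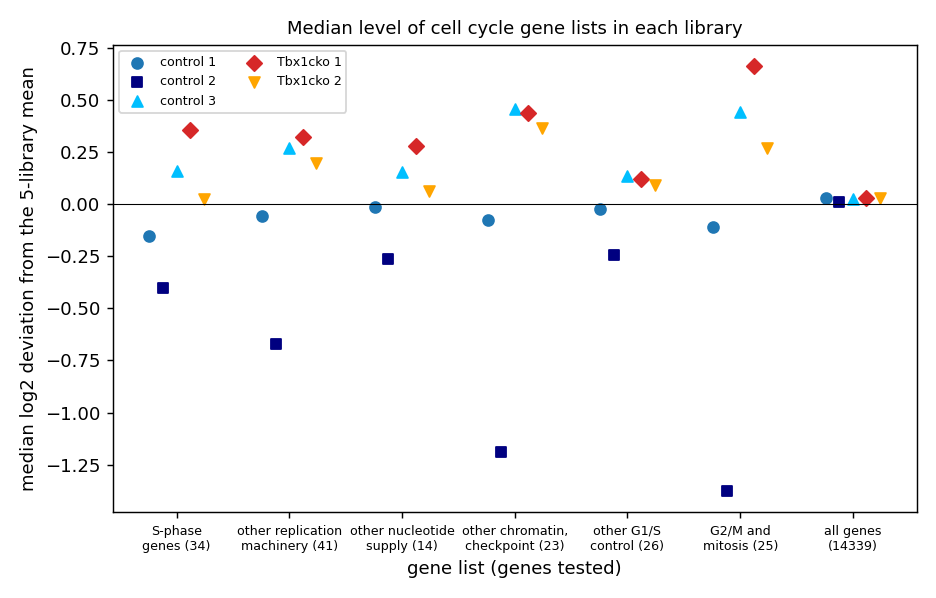
Median over each gene list of the log2 deviation from the 5-library mean (vertical axis), for the S-phase genes, 5 lists of other cell cycle genes and all genes tested (horizontal axis), with 1 symbol per library. Control replicate 2 is lowest in each cell cycle list, Tbx1cko replicate 1 and control replicate 3 are the upper pair in each, and the libraries are level over all genes.

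Summed levels of several marker lists lay apart between the groups beside these genes, and their part in the S-phase values was not tested. The counts of markers without overlap stand against 13.9% lower and 14.2% higher over all genes. Summed endothelial markers (12 of 12 in the table) were 213259 to 307340 normalised counts in controls and 194521 to 209761 in Tbx1cko. Of the 12, 7 were lower without overlap and 1, Erg, was higher. Control replicate 2 had the highest sum. The median log2 difference of -0.27 was -0.09 without that library, and -0.02 with all 5 libraries after GC correction. Mural markers, 12 of 12, summed to 50123 to 61568 and 40385 to 42270.0, with 10 lower without overlap. Their median log2 difference was -0.82, or -0.62 without control replicate 2 and -0.63 after GC correction. Genes induced by cell dissociation, 14 of 14, summed to 265853 to 534201 and 203145 to 236104, with 13 lower without overlap. Control replicate 2 again had the highest sum. The median log2 difference of -0.78 was -0.47 without that library, and -0.39 with all 5 libraries after GC correction. Sums of macrophage and monocyte markers, 12 of 12, overlapped: they came to 64686 to 104716 and 99982 to 101517, with 5 higher without overlap and Ccr2 at 0 in control replicate 2. Platelet markers, 8 of 8, summed to 1403 to 2435 and 3275 to 3738. Of these, 2 were higher without overlap, Pf4 and Ppbp, and 1, Gp1ba, was lower. Pf4 alone made up most of each sum, at 1049, 1625 and 1888 in controls and 2923 and 2726 in Tbx1cko. Neutrophil markers, 6 of 8 in the table, summed to 919 to 1262 and 1494 to 2040.5, with 4 higher and 0 lower without overlap. Sums of fibroblast markers, at 21961 to 38549 in controls and 19827 to 40557 in Tbx1cko, overlapped between the groups. Those of cardiomyocyte markers, at 7366 to 13330.0 and 9174 to 10181, overlapped only through control replicate 2, which had the highest sum. Of these 10 markers, 3 were higher without overlap, or 7 without control replicate 2, where 19.7% of all genes were. Their median log2 difference of -0.002 was 0.34 without that library, and 0.18 with all 5 libraries after GC correction.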

How the data were processed

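Polyadenylated RNA of CD31-positive heart cells was sequenced in 5 libraries, 3 control and 2 Tbx1cko, grouped by sample title. Per the labels' protocols, TRIzol LS was used for RNA and a TruSeq kit of Illumina for the libraries. Per the submitters' processing notes, the tools included STAR 2.5.2b, DESeq, DESeq2 1.20.0 and R 3.5.1, with build GRCm38 (mm10). Read counter, annotation and strand setting were not given in the sources used here. The table deposited by the authors holds a normalised signal, in which each library's read counts were divided by 1 size factor. Within a tolerance of 0.01, 100% of values were whole multiples of the smallest value above 0 of their library, which gave the reads. Size factors recomputed from these reads matched to a relative difference of 2.66e-15.

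The main test was limma 3.58.1 (R 4.3.3) with a trended prior on log2(normalised count + 1), for genes with a mean of at least 10, 2-sided, with genotype as the only term, Benjamini-Hochberg adjustment over all genes tested and a threshold of 0.05. Intervals cover 95%. edgeR 4.0.16 and DESeq2 1.42.0 were run on the recovered reads. Other alternatives were TMM scaling, a pseudocount of 5, no filter, a replicate block, a correction of log values for GC content (loess, span 0.3) and leaving out each library. The tests were also run on simulated counts. These were drawn without a GC deviation like that of control replicate 2, so that run does not cover it. Each library counted as 1 sample. Libraries of a group differed by more than sampling noise (chi-square per degree of freedom at least 14.2 in controls and 16.9 in Tbx1cko). Separate preparations can differ so too, and these values cannot show whether the libraries are separate animals. GC content (longest transcript), positions and exon lengths came from GENCODE M21 by symbol. Promoter windows came from RefSeq.

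The S-phase genes and the lists of other genes were chosen with earlier results of these data known. In each role, up to 4 genes with the smallest unadjusted p and all 3 of G1/S control were given library by library, and up to 3 genes per other list were named, of which 2 are not reported here. Mcm2, Mcm3, Pcna, Pold1, Fen1, Timeless, Rbl2, Cdk2 and the genes that DESeq2 called fall outside this rule and were named after their values were seen.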

Additional observations from a re-analysis of the deposited data

How the results depend on the processing

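Of the 34 S-phase genes tested, 0 passed an adjusted p of 0.05 under any of the 16 alternatives, with a smallest adjusted p of 0.246. The median log2 difference over the genes was 0.35 and stayed above 0 throughout, from 0.14 (edgeR without control replicate 2) to 0.60 (GC correction with the replicate block). For 18 genes the sign was the same under every alternative. Genes called among all tested went from 0 to 4 with DESeq2, to 3 with the replicate block and to 1 with GC correction and the block, and to between 0 and 77 with a library left out, the 77 with DESeq2 without control replicate 2. The S-phase genes higher without overlap numbered 5 to 26 with a library left out. Correlations of deviations between same-numbered libraries were -0.06 and -0.05. With 2 Tbx1cko libraries, their deviations from the group mean mirror each other, so these values cannot show whether samples were paired. The replicate numbers are those of the sample titles, and another label of the Tbx1cko samples numbers them differently. The pairing used in the block thus rests on the titles alone. Only the controls have a replicate 3, so with the block that library does not enter the genotype difference, except through the GC correction. Without GC correction, the block thus gave the same log2 differences as leaving out control replicate 3, and is not a separate check of them. The block changed no call of an S-phase gene.

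Signs reversed for the following log2 differences, and the cause was not tested. With GC correction, alone and then with the replicate block, they were 0.33 and 0.50 for Cdt1, 0.28 and 0.45 for Dnmt1, 0.26 and 0.46 for Pold1, 0.031 and 0.023 for Rfc2 and -0.074 and -0.14 for Rfc3. With 1 library left out, limma gave -0.22 to 0.013 for Cdt1, -0.16 to 0.073 for Dnmt1, -0.56 to 0.025 for Pold1, -0.19 to 0.044 for Rfc2, -0.036 to 0.39 for Rfc5, -0.26 to 0.64 for Cdca7, -0.21 to 0.30 for Mcm2, -0.23 to 0.29 for Mcm3, -0.0044 to 0.51 for Mcm5, -0.0079 to 0.26 for Mcm7, -0.0010 to 0.71 for Cdc6 and -0.0017 to 0.38 for Lig1. Without control replicate 2, edgeR and then DESeq2 gave 0.00085 and 0.0025 for Cdt1, 0.031 and 0.032 for Rfc2, -0.070 and -0.067 for Rfc5 and 0.052 and 0.054 for Dnmt1. Without that library and with GC correction the values were 0.12 for Cdt1, 0.038 for Rfc2, -0.023 for Rfc5, 0.13 for Dnmt1, 0.21 for Pold1, -0.024 for Mcm4, -0.039 for Pcna, -0.0087 for Rfc4 and -0.012 for Cdca7. A fit without 1 Tbx1cko library assumes that the remaining one varies like the controls. Mean normalised counts of the 34 genes ran from 62.9 to 3148. The median SE on the log2 scale was 0.28 with all 5 libraries and 0.18 without control replicate 2.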
